A study of Mus musculus with 7 samples.

Results

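Matricellular proteins are secreted into the extracellular matrix, where they act less as structural fibres than as regulators of how cells attach, move and respond to growth factors. Fibronectin, by contrast, is a fibre-forming glycoprotein that cells pull into a network through integrins. Fibroblasts are a main source of both, and loss of the mesenchymal matrix programme is an early step when fibroblasts are reprogrammed towards pluripotency. The genes described here are periostin (Postn), tenascin C (Tnc), tenomodulin (Tnmd), thrombospondins 1 and 2 (Thbs1 and Thbs2), osteonectin (Sparc), the CCN family members Ccn1 (also called Cyr61), Ccn2 (Ctgf) and Ccn3 (Nov), and fibronectin (Fn1). They were chosen by name, with earlier results of these data known. All 10 were on the array, each with 1 row that carried it as its only gene symbol, out of 13562 named genes.

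RNA of 7 mouse samples was hybridised to 1 Affymetrix array each. V6.5 embryonic stem cells (ESCs) were either wild type for Utx, written UTX+/Y (WT), or knockout, written UTX-/Y (KO). Utx is the X-linked demethylase of lysine 27 on histone H3, encoded by Kdm6a. Mouse embryonic fibroblasts (MEFs) labelled V19-OSKM, of either genotype, were grown with or without doxycycline (DOX). OSKM stands for Oct4, Sox2, Klf4 and Myc, the 4 factors used for reprogramming, which DOX induces in these cells. Both the WT and the KO MEFs carried that inducible system. The last sample was fibroblasts derived from Nanog-/- ESCs and transduced with an OSKM lentivirus for 8 days. The labels do not say how long DOX was given or how many animals or clones stand behind a sample. They give the same ESC medium, N2B27 2i/LIF, for all samples. No condition was repeated, so the 2-array differences have no replicate check and no p-value. A difference is called here where it reaches 2-fold (1 on the log2 scale) and the higher value exceeds a floor, 7.34, which is the 40th percentile of all deposited log2 values. A log2 difference is of deposited values, and where its lower value lies under the floor its size is not measured exactly. For the 10 genes such differences are given as bounds against the floor, except in plots and summary medians, which use deposited values unless said otherwise.

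The targeted gene Kdm6a read 9.12 in ESCs of WT and 7.97 in those of KO genotype, 8.22 and 6.32 in the corresponding MEFs without DOX, 8.93 and 7.57 with DOX, and 9.08 on the Nanog KO array. It was lower in the KO library of each pair. Pou5f1, which encodes Oct4 and is induced by DOX, read 8.19 without and 12.59 with DOX in WT MEFs, but 11.26 in the MEFs labelled KO without DOX and 5.12 in those labelled KO with DOX. These levels run against the DOX labels of the KO pair. Both libraries are therefore named by label only, and each direction that rests on them depends on those labels. The Nanog KO array had a median of 8.55, where the 6 Utx arrays had 7.68 to 7.84, and differences of the 10 genes from it are given beside that shift. Of the fibroblast markers, all 12 exceeded the floor on 4 arrays as deposited. These were the WT MEFs without DOX, both MEF libraries labelled KO and the Nanog KO fibroblasts. The lowest of these markers on the Nanog KO array read 7.59, so the count there depends on array scaling. In WT MEFs with DOX and in WT ESCs 8 of 12 exceeded the floor, and in KO ESCs 1 of 12. All 10 pluripotency markers exceeded it in both ESC libraries.

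Each of the 10 genes was highest in a fibroblast library, and none was highest in ESCs. Postn, a secreted protein that binds collagen and integrins, read 12.56 in WT MEFs without DOX, 12.37 in MEFs labelled KO with DOX, 11.88 in the Nanog KO fibroblasts and 11.04 in MEFs labelled KO without DOX. It then read 9.11 in WT ESCs, 5.85 in KO ESCs and 5.57 in WT MEFs with DOX. As deposited, the 4 upper values lay within 2-fold of their neighbours in that order. The steps from MEFs labelled KO without DOX to WT ESCs and from WT to KO ESCs exceeded 2-fold. With array medians aligned, the Nanog KO fibroblasts read 11.14 for Postn, so their steps in that order depend on array scaling. Tnc, a large hexameric glycoprotein of developing and remodelling matrix, read 12.90 in WT MEFs without DOX, 12.23 and 11.72 in MEFs labelled KO with and without DOX, and 10.99 in WT ESCs. Its other readings were 8.33 in the Nanog KO fibroblasts, 7.96 in KO ESCs and 6.98 in WT MEFs with DOX. As deposited, only the step from WT ESCs to the Nanog KO fibroblasts exceeded 2-fold between neighbours. With array medians aligned, the Nanog KO fibroblasts read 7.59 for Tnc, so their place and that step depend on array scaling.

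Tnmd, a membrane glycoprotein of tendon and ligament cells, exceeded the floor on 3 arrays. It read 10.89 in WT MEFs without DOX and 10.76 in MEFs labelled KO with DOX, values close to each other, and 7.48 in MEFs labelled KO without DOX. The Nanog KO fibroblasts read 6.09, WT ESCs 4.62, KO ESCs 4.21 and WT MEFs with DOX 4.20, all under the floor. Scx, the transcription factor that marks tendon progenitors, read 7.77 in WT MEFs without DOX and 8.53 in MEFs labelled KO with DOX, both above the floor, and 6.67 in both MEFs labelled KO without DOX and WT MEFs with DOX. It read 6.65 and 6.05 in WT and KO ESCs, and 7.51 as deposited in the Nanog KO fibroblasts, whose array had a higher median. Mkx, also on the tendon list, read 9.92 in the Nanog KO fibroblasts, again as deposited. It read 7.85 in WT MEFs without DOX and 8.03 in MEFs labelled KO with DOX. Its values were 7.43 in MEFs labelled KO without DOX and 6.70 in WT MEFs with DOX. WT and KO ESCs read 7.74 and 8.19 for Mkx.

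The 2 thrombospondins differed in range. Thbs1, a trimeric glycoprotein that activates latent TGF-beta and binds CD47 and CD36, stayed above the floor everywhere. It read 13.49 in WT MEFs without DOX, 13.43 in MEFs labelled KO with DOX, 12.90 in those labelled KO without DOX, 12.72 in the Nanog KO fibroblasts, 12.55 in WT ESCs, 10.60 in WT MEFs with DOX and 9.73 in KO ESCs. As deposited, the first 5 lay within 2-fold of their neighbours, and a step of 1.94 separated WT ESCs from WT MEFs with DOX. With array medians aligned, the Nanog KO fibroblasts read 11.98 for Thbs1, so their place in that order depends on array scaling. Thbs2, its relative that lacks the TGF-beta activating motif, had deposited values spanning 7.41 on the log2 scale, or 6.70 with array medians aligned, with its lowest values under the floor. Readings of Thbs2 were 13.16 in the Nanog KO fibroblasts, 12.33 in WT MEFs without DOX, 12.15 and 11.26 in MEFs labelled KO with and without DOX, 8.62 in WT ESCs, 6.68 in WT MEFs with DOX and 5.75 in KO ESCs.

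Sparc, a collagen-binding glycoprotein, varied least, with a span of 1.97 as deposited and 1.51 with array medians aligned. It read 13.88 in the Nanog KO fibroblasts, 13.39 in WT MEFs without DOX, 13.32 and 12.98 in MEFs labelled KO with and without DOX, 12.82 in WT MEFs with DOX, 12.74 in WT ESCs and 11.91 in KO ESCs, with no 2-fold step between neighbours. Fn1 had a span of 2.07 as deposited and 2.02 with array medians aligned. Fn1 readings were 13.41 in the Nanog KO fibroblasts, 13.33 in MEFs labelled KO with DOX, 13.29 in WT MEFs without DOX, 12.92 in those labelled KO without DOX, 12.79 and 12.49 in WT and KO ESCs, and 11.34 in WT MEFs with DOX, which lay a 2-fold step below the rest. With array medians aligned, the Nanog KO fibroblasts read 13.14 for Sparc and 12.67 for Fn1, below the 13.39 and 13.29 of WT MEFs without DOX. On every array at most 3.66% of rows read higher than Sparc and at most 5.90% higher than Fn1, and the highest value on any array was 14.55. Whether signals so near the top of the scale narrowed their differences was not tested.

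The CCN proteins share a plan of cysteine-rich modules that bind integrins, growth factors and heparan sulphate, and Ccn1 and Ccn2 are standard targets of the YAP and TAZ coactivators. Ccn1 read 12.30 and 11.93 in WT MEFs without and with DOX, 12.03 and 11.85 in MEFs labelled KO with and without DOX, 10.63 in WT ESCs, 9.70 in the Nanog KO fibroblasts and 8.95 in KO ESCs. The 4 MEF values lay within 2-fold of each other, and the other 3 lay below them. Ccn2 readings were 13.01 in WT MEFs without DOX, 12.29 in MEFs labelled KO with DOX, 11.78 in WT ESCs, 11.20 in WT MEFs with DOX, 11.07 in MEFs labelled KO without DOX, 10.21 in KO ESCs and 10.10 in the Nanog KO fibroblasts, with no 2-fold step between neighbours. Ccn3 was detected above the floor on 4 arrays. It read 11.82 in the Nanog KO fibroblasts, 11.69 in MEFs labelled KO with DOX, 10.96 in WT MEFs without DOX and 9.61 in MEFs labelled KO without DOX, against 5.79 and 5.33 in WT and KO ESCs and 5.12 in WT MEFs with DOX. With array medians aligned, Ccn3 read 11.07 in the Nanog KO fibroblasts, so their first place for this gene depends on array scaling.

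**Figure D1:**
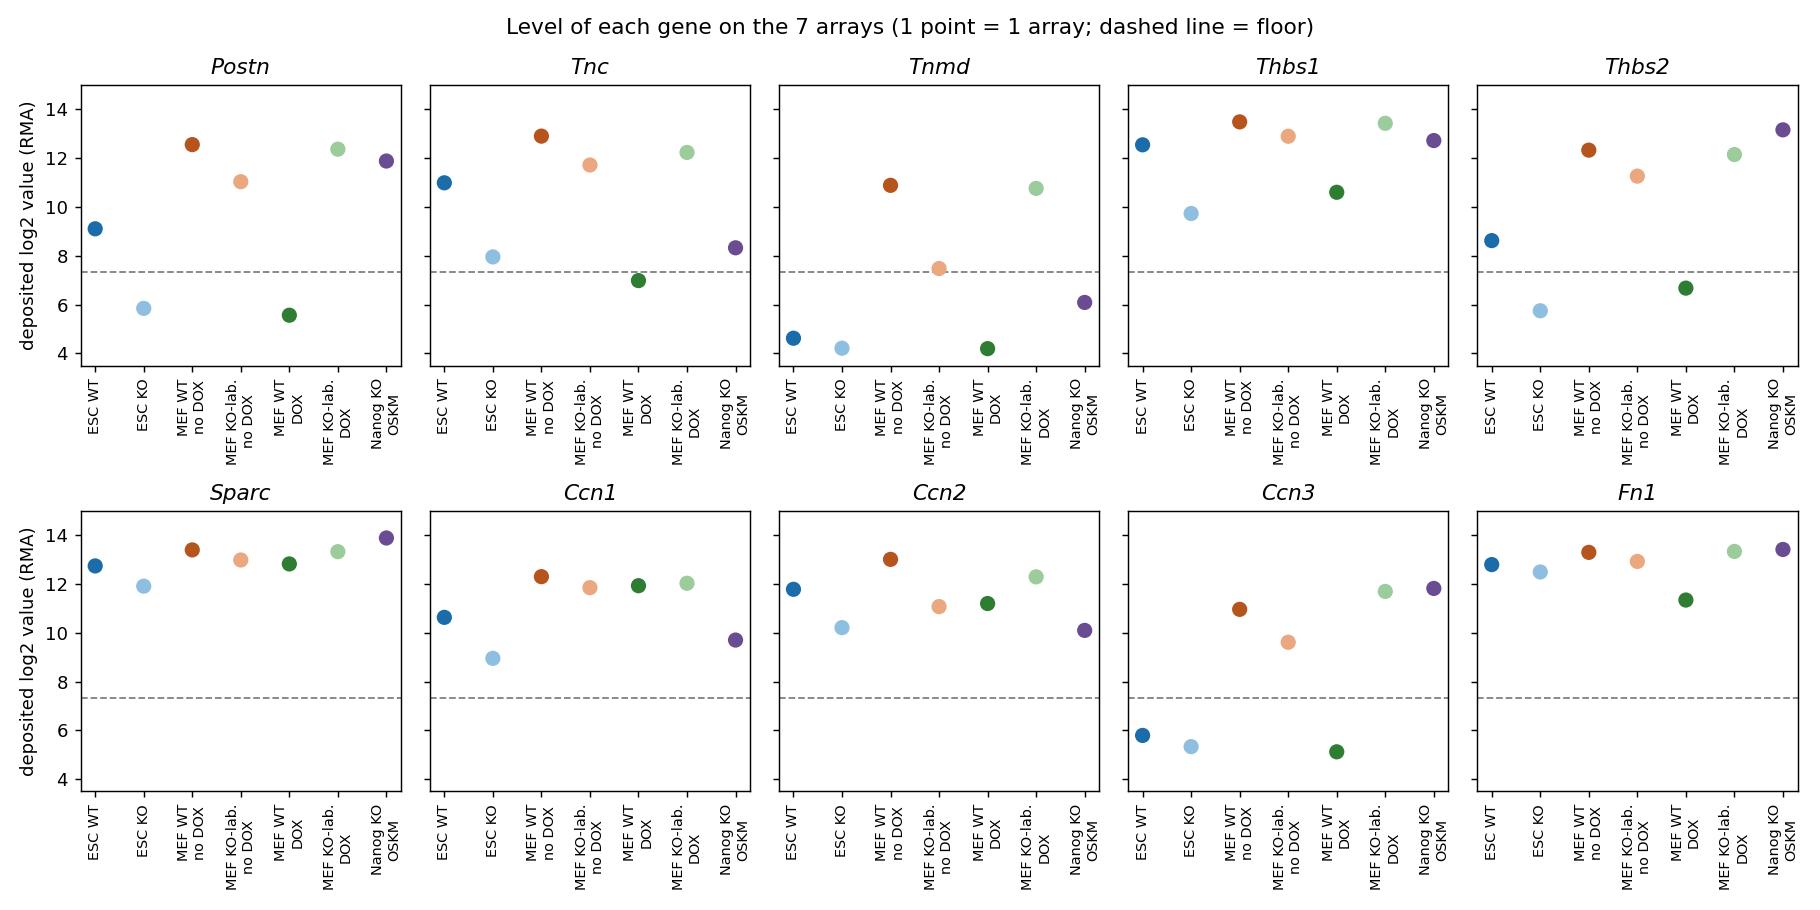
Deposited log2 value (vertical axis) of each of the 10 genes on the 7 arrays (horizontal axis), 1 point an array, with the floor of 7.34 as a dashed line. Sparc stays between 11.91 and 13.88, while Postn, Tnmd, Thbs2 and Ccn3 lie under the floor in WT MEFs with DOX and in KO ESCs.

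In WT MEFs with DOX, some of the genes lay under the floor and others within 2-fold of their level without it. Promoter sequences of a few are shown so that the groups can be set side by side. They come from RefSeq on build GRCm38.p6 and hold the 250 bases before the annotated start, written 5′ to 3′ on the strand of the gene, and 6 of the 10 genes had an entry there. Thbs1, Ccn2, Ccn3 and Fn1 had no entry in the promoter set used here, so their promoters were not searched. Capitals mark matches, on either strand, to the TEAD motif GGAATG, through which YAP and TAZ act, or to the TATA box TATAAA. Postn (the downstream of 2 listed starts, chr3:54360857-54361106, plus strand), Tnc (the upstream of 2, chr4:64047016-64047265, minus strand) and Thbs2 (chr17:14694263-14694512, minus strand) stand, with Tnmd (chrX:133850758-133851007, plus strand), for the genes under the floor with DOX in WT MEFs. Ccn1 (chr3:145649986-145650235, minus strand) and Sparc (chr11:55420081-55420330, minus strand) stand for those within 2-fold.
Postn: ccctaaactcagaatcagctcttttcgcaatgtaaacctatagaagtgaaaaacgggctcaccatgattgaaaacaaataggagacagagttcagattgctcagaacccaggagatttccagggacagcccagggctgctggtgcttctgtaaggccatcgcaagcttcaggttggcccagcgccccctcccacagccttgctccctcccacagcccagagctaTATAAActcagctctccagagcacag
Tnc: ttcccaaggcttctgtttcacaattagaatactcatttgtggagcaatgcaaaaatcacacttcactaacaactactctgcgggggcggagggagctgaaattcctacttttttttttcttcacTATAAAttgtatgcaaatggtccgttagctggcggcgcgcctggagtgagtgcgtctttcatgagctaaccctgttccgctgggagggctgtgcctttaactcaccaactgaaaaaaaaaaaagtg
Thbs2: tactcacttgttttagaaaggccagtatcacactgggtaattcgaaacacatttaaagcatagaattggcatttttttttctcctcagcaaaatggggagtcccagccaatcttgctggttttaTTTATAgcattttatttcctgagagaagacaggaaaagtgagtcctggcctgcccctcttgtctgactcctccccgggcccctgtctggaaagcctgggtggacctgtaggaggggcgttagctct
Tnmd: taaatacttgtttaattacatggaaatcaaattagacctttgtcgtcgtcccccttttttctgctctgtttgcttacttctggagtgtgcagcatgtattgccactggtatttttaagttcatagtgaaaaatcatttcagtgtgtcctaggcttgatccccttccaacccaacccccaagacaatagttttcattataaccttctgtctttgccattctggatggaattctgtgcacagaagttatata
Ccn1: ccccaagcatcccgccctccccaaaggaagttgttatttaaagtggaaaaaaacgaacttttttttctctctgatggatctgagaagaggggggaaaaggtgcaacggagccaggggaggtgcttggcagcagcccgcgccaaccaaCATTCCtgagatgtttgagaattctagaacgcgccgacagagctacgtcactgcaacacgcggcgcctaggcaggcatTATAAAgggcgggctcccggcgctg
Sparc: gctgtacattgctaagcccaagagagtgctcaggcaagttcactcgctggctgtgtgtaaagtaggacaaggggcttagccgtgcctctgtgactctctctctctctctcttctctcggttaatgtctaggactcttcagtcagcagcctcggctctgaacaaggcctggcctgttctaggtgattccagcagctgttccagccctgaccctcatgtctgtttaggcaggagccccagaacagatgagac
Ccn1 held the TEAD motif once, in the reverse orientation, as 1 of the 8 windows of the 6 genes with an entry, against 12.6% of all 32851 listed promoter windows of that length. The TATAAA match occurred in 5 of the 8 windows, which belong to 4 of the 6 genes, and in 12.4% of all windows. Counted from the start, it began at -25 in Ccn1 and -26 in the Postn window. It began at -126 in the Tnc window shown and in Thbs2, where it reads TTTATA, on the reverse strand. The same Tnc match begins at -205 in the window of the downstream Tnc start, which is not shown. The window of Tnmd, that of Sparc and the upstream window of Postn held none of the motifs searched. The AP-1 motif TGANTCA and the CArG box, searched on both strands, were found in 0 of the 8 windows, against 6.75% and 1.47% of all windows. The TEAD and TATAAA matches do not overlap in these windows. A match is a description of letters in the window and no evidence of binding.

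Most of these genes were lower with DOX in WT MEFs. Of the 10, 8 were 2-fold or more lower and 0 higher, beside 25.6% of 9524 genes that passed in either direction, 13.7% lower and 11.9% higher. The median over the 10 was -4.27 as deposited and -3.22 with values under the floor set to it, beside 0.00 for the median gene. The values that were under the floor with DOX give lower bounds: Postn was at least 37.2-fold lower, Tnc at least 47.3-fold, Thbs2 at least 31.8-fold, Ccn3 at least 12.3-fold and Tnmd at least 11.7-fold. Thbs1 was 7.38-fold lower, Fn1 3.87-fold and Ccn2 3.51-fold, all still above the floor. Sparc, at -0.57, and Ccn1, at -0.37, lay within 2-fold. Within the CCN family, then, Ccn3 was under the floor, Ccn2 lower but still above it, and Ccn1 within 2-fold.

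Measured against WT ESCs, the values in WT MEFs with DOX often lay below the ESC level. Tnc was at least 12.6-fold lower than in WT ESCs, Postn at least 3.40-fold and Thbs2 at least 2.43-fold, since all 3 were under the floor in WT MEFs with DOX. Thbs1 was 3.85-fold lower and Fn1 2.74-fold. Tnmd and Ccn3 were under the floor in both libraries and give no order. Ccn2 lay 0.58 below the WT ESC level, Sparc lay 0.08 above it and Ccn1 1.30 above it.

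Other genes of the pathway gave different counts by list in the same comparison. Among 17 further matricellular genes that exceeded the floor, 14 were lower by 2-fold or more and 0 higher (median -3.35 over 18 measured), among them Tgfbi at -5.56, Thbs4, a tendon thrombospondin, at -4.34, Ccn5 at -4.00 and Smoc2 at -3.96. Tendon genes had 8 of 9 lower, with Col12a1 at -5.99 and Fmod, a collagen-binding proteoglycan, at -4.04. Fibronectin partners had 15 of 23 lower and 1 higher. Receptors were mixed, with 10 of 23 lower and 3 higher: the collagen receptor subunit Itga11 differed by -5.91, Itga8, a receptor subunit for fibronectin and tenascin C, by -4.50, and Itga1 by -4.33, while the hemidesmosome subunit Itgb4 differed by 5.72. YAP and TAZ targets, a list that leaves out Ccn1 and Ccn2, had 8 of 18 lower and 3 higher, with Ankrd1 at -5.26, F3 at -4.05, Rbms3 at -3.87 and Nt5e at 3.56. These counts and medians are read beside those of all genes given above. The tendon and matricellular lists share Thbs4 and Comp.

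Markers of other cell types differed in the same pair. Of 12 fibroblast markers, 8 were lower with DOX and 0 higher, and the log2 of their summed level was 15.19 without and 13.62 with DOX. Macrophage markers had 12 of 13 lower (13.84 and 10.75), and the macrophage surface protein gene Adgre1 read 9.91 and 4.18. Smooth muscle markers had 7 of 7 lower (14.42 and 11.51), and epithelial markers 11 of 11 higher (9.72 and 14.69), with Krt8 at 7.07 and 13.36. Endothelial markers had 2 of 2 higher (8.60 and 10.52), although Pecam1 lay under the floor at 5.24 and 5.81. In bulk RNA, fewer cells of a type and less RNA per cell cannot be told apart. The part of cell composition in the differences of the 10 genes was not tested.

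In the MEFs labelled KO, the library with DOX had the higher value for all 10 genes. In 4 of them the difference reached 2-fold, beside 9.74% of 9119 genes in either direction, 6.81% higher and 2.93% lower. Over all genes this is 481 higher and 378 lower genes with the array medians aligned against 621 and 267 as deposited. Tnmd read 7.48 without and 10.76 with DOX, a difference of 3.28, which would be -3.28 if the DOX labels were exchanged. Ccn3 differed by 2.08, Postn by 1.33 and Ccn2 by 1.22. The other 6 lay between 0.18 (Ccn1) and 0.88 (Thbs2). The median gene differed by 0.13 and the median over the 10 was 0.71. Of the tendon list, 4 of 8 were 2-fold higher, among them Comp, a cartilage and tendon thrombospondin, at 2.62 and Scx at 1.86. In the same pair fibroblast markers were higher in 1 of 12 (log2 summed level 14.72 without and 15.17 with DOX), smooth muscle markers in 3 of 6 (13.63 and 14.22) and macrophage markers in 4 of 6 with 1 lower (11.41 and 12.08), while epithelial markers were lower in 4 of 4 (11.22 and 9.40). Their part in the result was not tested.

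**Figure D2:**
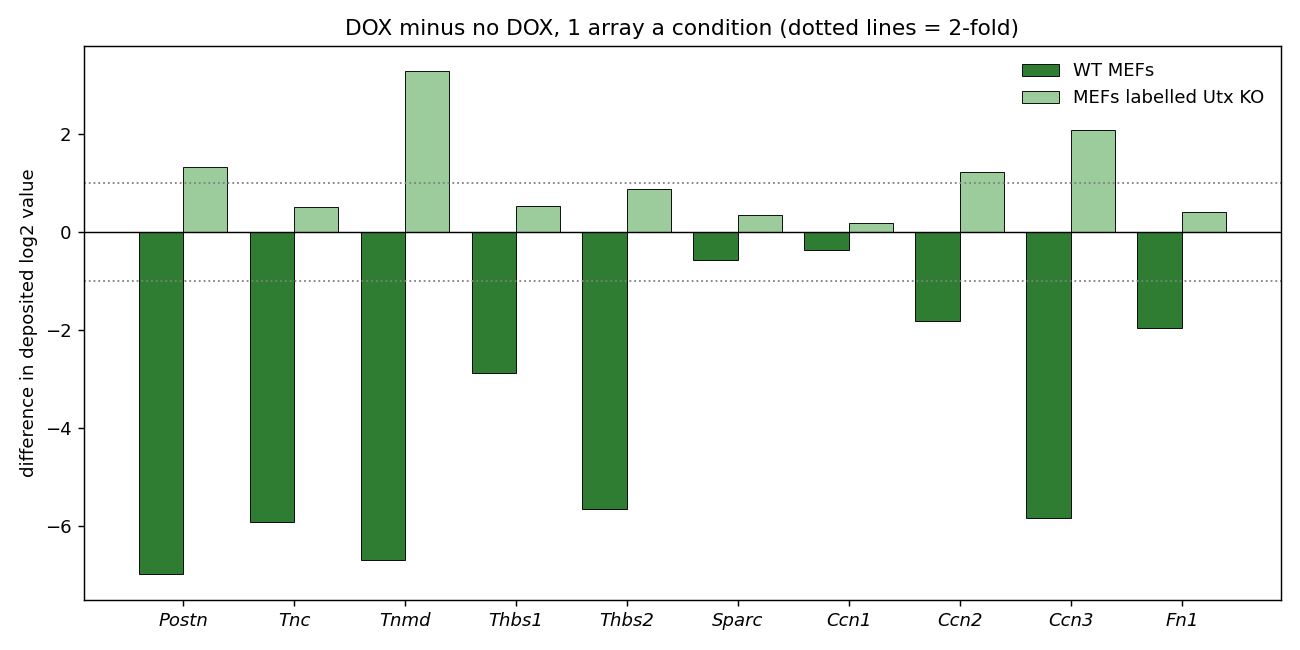
Difference in deposited log2 value, DOX minus no DOX (vertical axis), for each gene in WT MEFs (dark bars) and in MEFs labelled Utx KO (light bars), 1 array a condition, with dotted lines at 2-fold. Bars are drawn from deposited values, so those of genes under the floor with DOX have no exact length. All 10 dark bars point down, from -0.37 to -6.99, and all 10 light bars point up, from 0.18 to 3.28.

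Set against WT MEFs, the library labelled KO with DOX held these genes at about the level of WT MEFs without DOX. Its differences from WT MEFs without DOX ran from -0.72 (Ccn2) to 0.73 (Ccn3). The library labelled KO without DOX, set against WT MEFs with DOX, had Tnc at least 20.8-fold higher, Thbs2 at least 15.2-fold, Postn at least 13.0-fold and Ccn3 at least 4.82-fold. In that pair Thbs1 was 4.91-fold and Fn1 2.99-fold higher, Tnmd at least 1.10-fold, and Sparc (0.16), Ccn1 (-0.08) and Ccn2 (-0.13) lay within 2-fold. Between the 2 libraries with DOX, 8 of 10 were 2-fold or more higher in the one labelled KO and 0 lower, beside 26.4% of 9572 genes in either direction, 14.3% higher and 12.1% lower. Postn was at least 32.7-fold higher, Tnc at least 29.8-fold, Thbs2 at least 28.0-fold, Ccn3 at least 20.4-fold and Tnmd at least 10.7-fold. Thbs1 differed by 2.83, Fn1 by 1.99 and Ccn2 by 1.09, while Sparc, at 0.50, and Ccn1, at 0.10, again lay within 2-fold. Fibroblast markers were higher in 9 of 12 and lower in 1 (log2 summed level 15.17 against 13.62), and epithelial markers lower in 11 of 11 (9.40 against 14.69), and their part was not tested. This comparison and that of DOX in WT MEFs share the array of WT MEFs with DOX, so their values stand side by side and do not support each other.

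Without DOX, the library labelled KO was lower than WT for all 10 genes, and 6 reached 2-fold, beside 14.6% of 9253 genes in either direction, 9.53% lower and 5.04% higher. With the array medians aligned the split over all genes was 685 lower and 677 higher, against 882 and 466 as deposited, and the median gene differed by -0.11. Tnmd differed by -3.41, Ccn2 by -1.94, Postn by -1.52, Ccn3 by -1.35, Tnc by -1.18 and Thbs2 by -1.06, the last passing 2-fold as deposited but not with aligned medians (-0.93). Thbs1, Ccn1, Sparc and Fn1 lay between -0.59 and -0.37. Tendon genes were lower in 5 of 9, among them Thbs4 at -3.36 and Comp at -2.20. Macrophage markers were lower in 12 of 13 in the same pair, with a log2 summed level of 13.84 for WT and 11.41 for the other library, and smooth muscle markers in 5 of 7 (14.42 and 13.63). Fibroblast markers were lower in 1 of 12 (15.19 and 14.72). Epithelial markers were higher in 3 of 4 (9.72 and 11.22), with Cdh1 at 3.75. The endothelial marker above the floor was higher in 1 of 1 (8.60 and 10.18). Pluripotency markers were higher in 2 of 3 (10.04 and 11.94), namely Nanog at 2.39 and Pou5f1, itself a DOX-induced factor, at 3.06. Their part in the result was not tested.

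In ESCs the Utx KO library had lower values than WT for each of the 8 genes that exceeded the floor. Among the 8 that exceeded the floor, 6 were lower by 2-fold or more and 0 higher, beside 3.83% of 8598 genes in either direction, 3.18% lower and 0.651% higher. The median over those 8 was -2.25 as deposited and -1.62 with values under the floor set to it, beside 0.06 for the median gene. Tnc read 10.99 in WT and 7.96 in KO, 8.20-fold lower, and Thbs1 read 12.55 and 9.73, 7.03-fold lower. Postn was at least 3.40-fold and Thbs2 at least 2.43-fold lower, since both were under the floor in KO. Ccn1 was 3.20-fold lower and Ccn2 2.97-fold. Sparc, at -0.83, and Fn1, at -0.30, lay within 2-fold. Neither ESC library exceeded the floor for Tnmd or Ccn3, which therefore give no difference. Genotype and culture cannot be told apart here, with 1 ESC library for each.

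**Figure D3:**
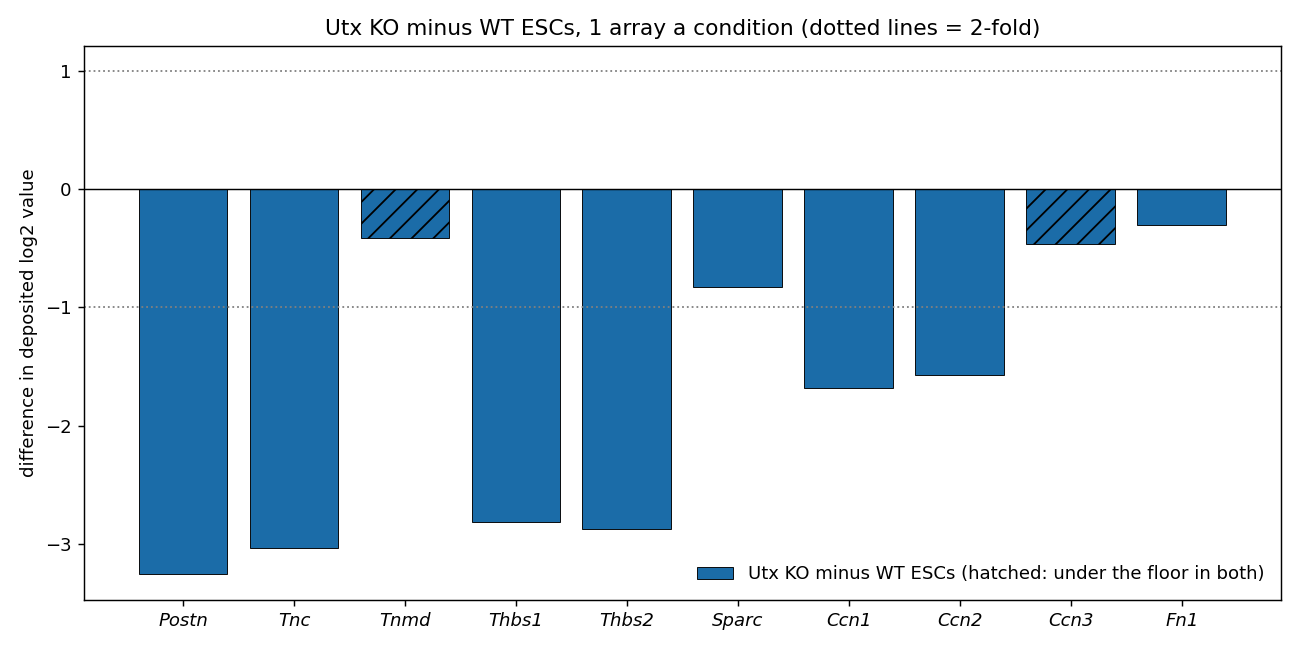
Difference in deposited log2 value, Utx KO minus WT ESCs (vertical axis), for each gene, 1 array a condition, with dotted lines at 2-fold and hatching where both values were under the floor. Postn, Tnc, Thbs1 and Thbs2 lie between -2.81 and -3.26, Ccn1 and Ccn2 at -1.68 and -1.57, and Sparc and Fn1 inside the 2-fold line.

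The related lists gave different counts in KO ESCs. Further matricellular genes above the floor were 2-fold lower in 6 of 11 and higher in 0, with Fbln2, which is also on the fibroblast list, at -3.08, Fbln5, an elastic fibre protein, at -2.58, Ccn4 at -2.13 and Ecm1 at -2.06. YAP and TAZ targets were lower in 8 of 17 and higher in 0, with Ccdc80 at -3.52, Axl, a receptor tyrosine kinase, at -2.64, F3, tissue factor, at -2.60 and Ankrd1 at -2.52. Fibronectin partners were lower in 7 of 18 and higher in 0. Receptors were lower in 4 of 15, including Cd44 at -2.61 and Itgb1, the common beta subunit of the fibronectin receptors, at -1.19, while Itga9, a tenascin C receptor subunit, differed by 1.38. Of the tendon list only Col12a1, at -3.37, was called of 3 above the floor, whose median was 0.44.

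Markers of several cell types differed alongside in the ESC pair. Fibroblast markers were lower in 7 of the 8 above the floor, with 8 of 12 exceeding the floor in WT and 1 of 12 in KO, and a log2 summed level of 12.43 and 10.05. Among them Col1a1 read 10.30 and 7.59, and Pdgfrb 8.91 and 6.71. Smooth muscle markers were lower in 6 of 6 (13.35 and 10.72). Epithelial markers were lower in 4 of 7 and higher in 0 (12.63 and 11.90), with Krt18 at -2.15 and Krt8 at -1.83. Extraembryonic endoderm markers, whose lineage is a rich source of Sparc, were lower in 1 of 4 (10.85 and 10.90). Pluripotency markers were within 2-fold in 10 of 10 (15.20 and 15.33). The part of other cells in the ESC cultures was not tested.

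WT ESCs and WT MEFs without DOX differed in 7 of the 10 genes, all lower in ESCs, beside 34.3% of 9673 genes in either direction, 19.8% lower and 14.5% higher. Tnmd and Ccn3, under the floor in ESCs, were at least 11.7-fold and at least 12.3-fold lower. Thbs2 was 13.1-fold lower, Postn 10.9-fold, Tnc 3.77-fold, Ccn1 3.18-fold and Ccn2 2.34-fold. Thbs1 (-0.94), Sparc (-0.66) and Fn1 (-0.50) lay within 2-fold. The median over the 10 was -1.79. Fibroblast markers were lower in ESCs in 12 of 12 (log2 summed level 12.43 against 15.19). Macrophage markers were lower in 11 of 13 with 1 higher (12.43 against 13.84), and smooth muscle markers in 6 of 7 (13.35 against 14.42). Of the macrophage markers 2 of 13 exceeded the floor in WT ESCs, with a median of 5.24 and a highest value of 11.92. Epithelial markers were higher in 7 of 8 (12.63 against 9.72) and pluripotency markers in 10 of 10 (15.20 against 10.04). Their part in the result was not tested.

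The Nanog KO fibroblasts carrying the factors held a different subset. Against WT MEFs without DOX, where the median gene differed by 0.73, 4 of the 10 were 2-fold or more lower and 0 higher. Over 10740 genes 38.8% passed in either direction, 3.72% lower and 35.1% higher, and with array medians aligned 1064 were lower and 910 higher, against 399 and 3773 as deposited. Tnmd was at least 11.7-fold lower, Tnc 23.8-fold, Ccn2 7.51-fold and Ccn1 6.05-fold. With aligned medians these were at least 12.5-fold, 39.8-fold, 12.6-fold and 10.1-fold. Thbs2 differed by 0.83, Ccn3 by 0.86, Sparc by 0.49 and Fn1 by 0.12, which relative to the median gene are 0.10, 0.13, -0.24 and -0.61. Postn differed by -0.67 and Thbs1 by -0.77 as deposited, and with aligned medians both passed 2-fold, at -1.41 and -1.51.

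Against WT MEFs with DOX, where the median gene differed by 0.76, the same array was higher in 7 of the 10 and lower in 2, beside 42.7% of 10833 genes in either direction, 37.2% higher and 5.53% lower. With aligned medians 5 were higher and 2 lower, and over all genes 1281 were higher and 1299 lower, against 4032 and 599 as deposited. Thbs2 was at least 56.5-fold higher, Postn at least 23.3-fold and Ccn3 at least 22.2-fold as deposited, and at least 36.0-fold, 14.9-fold and 14.2-fold with aligned medians. Thbs1 differed by 2.12 and Fn1 by 2.07, or 1.36 and 1.32 relative to the median gene. Tnc was at least 1.98-fold and Sparc 2.09-fold higher as deposited, and with aligned medians neither was called, at least 1.26-fold and 1.25-fold higher. Ccn1 and Ccn2 were lower, by 2.23 and 1.10 as deposited, which relative to the median gene are -2.98 and -1.86. Both comparisons use the Nanog KO array, which also differed from the MEFs in cell line and in the delivery of the factors, and these cannot be told apart from the genotype.

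**Figure D4:**
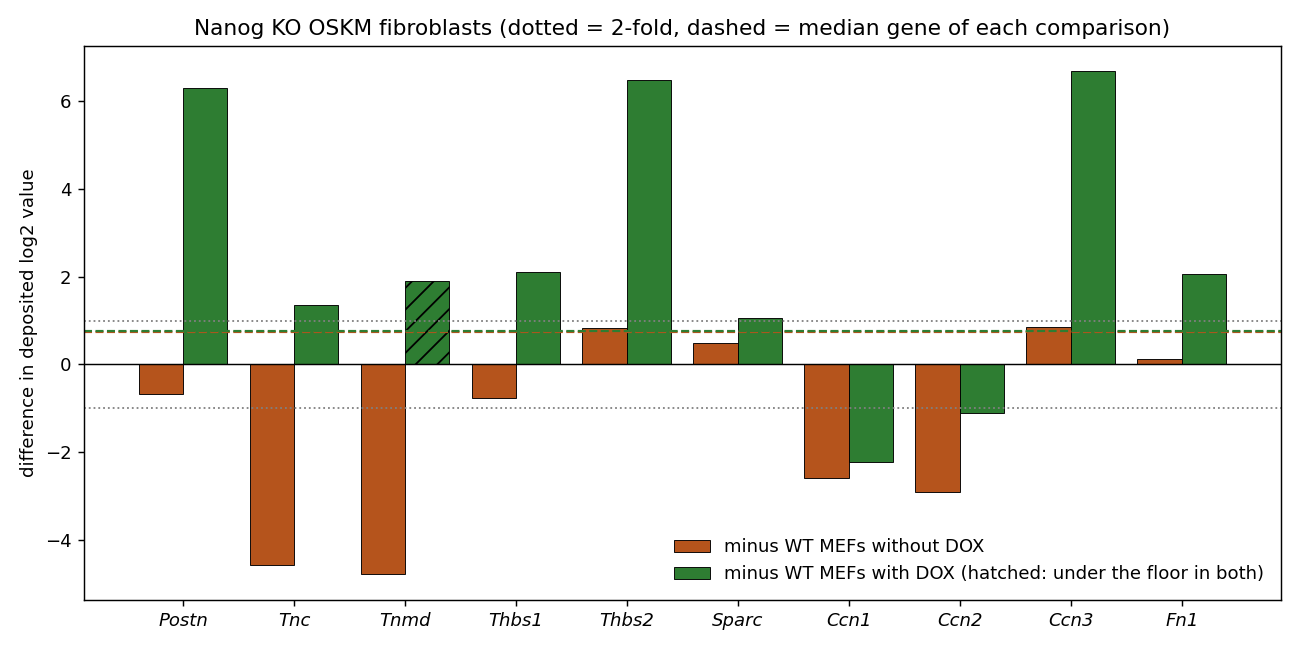
Difference in deposited log2 value (vertical axis) of the Nanog KO OSKM fibroblasts from WT MEFs without DOX (brown bars) and with DOX (green bars) for each gene, 1 array a condition, with dotted lines at 2-fold, dashed lines at the median gene of each comparison (0.73 and 0.76), and hatching where both values were under the floor. Ccn1 and Ccn2 lie below 0 in both, while Postn, Thbs2 and Ccn3 exceed 6 against WT MEFs with DOX.

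The related lists are given for these comparisons with array medians aligned. Against WT MEFs with DOX, further matricellular genes were higher in 10 of 14 and lower in 0 (13 of 14 higher as deposited), with Sparcl1, the closest relative of Sparc, at 5.20 and Tgfbi at 4.83. Against WT MEFs without DOX they were lower in 7 of 18 and higher in 2 (5 and 4 as deposited), with Thbs4 at -4.38, Smoc1 at -3.76 and Sparcl1 at 2.46. YAP and TAZ targets were lower in 5 of 18 and higher in 1 against WT MEFs without DOX (3 and 4 as deposited), with Ankrd1 at -5.27, F3 at -3.41 and Nt5e at 3.47. Against WT MEFs with DOX these targets were lower in 3 of 17 and higher in 5 (0 and 7 as deposited), with Rbms3 at 3.77 and Amotl2 at -1.52. Of the tendon list, 5 of 9 were lower and 3 higher against WT MEFs without DOX (also 5 and 3 as deposited). Among these, Egr1, a growth factor-induced regulator of tendon genes, differed by -4.54, and Mkx by 1.33. Against WT MEFs with DOX, 1 of 6 was lower and 4 were higher (1 and 4 of 7 as deposited).

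Cell type markers differed in both Nanog KO comparisons, again with aligned medians. Against WT MEFs without DOX, smooth muscle markers were lower in 7 of 7 (log2 summed level 11.08 on the Nanog KO array and 14.42 in the MEFs), macrophage markers in 10 of 13 (12.67 and 13.84) and fibroblast markers in 3 of 12 with 2 higher (15.21 and 15.19). Epithelial markers were higher in 4 of 4 (10.84 and 9.72). Against WT MEFs with DOX, fibroblast markers were higher in 7 of 12 and lower in 1 (15.21 and 13.62), macrophage markers higher in 5 of 7 (12.67 and 10.74) and epithelial markers lower in 11 of 11 (10.84 and 14.69). Their part in the result was not tested.

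Across the 7 arrays the 10 genes fell along different lines, given here as a description over 7 points that share cell types and array scaling. Postn and Thbs2 correlated at r = 0.97, Thbs2 and Ccn3 at r = 0.96, and Ccn1 and Ccn2 at r = 0.78, whereas Ccn1 and Ccn3 correlated at r = 0.31 and Ccn1 and Fn1 at r = -0.04. Among 4086 genes with a span of 2 or more, the 3 most like Thbs2 were Col1a2 (r = 0.995), Col1a1 (r = 0.994) and Rbms3 (r = 0.994), and those most like Postn were Layn (r = 0.996), Pappa (r = 0.995) and Col12a1 (r = 0.993). Tnc was nearest to Tagln (r = 0.997), a smooth muscle actin-binding protein gene, then Adam19 (r = 0.990) and Myl9 (r = 0.981). Thbs1 was nearest to Gask1b (r = 0.976), Col12a1 (r = 0.974) and Lox (r = 0.973), and Tnmd to Rspo2 (r = 0.993), Hp (r = 0.992) and Aoc3 (r = 0.991). For Ccn1 they were Tes (r = 0.987), Unc5b (r = 0.939) and Tnfrsf12a (r = 0.932), and for Ccn2 Tspan2 (r = 0.937), Unc5b (r = 0.935) and Inhba (r = 0.908). Ccn3 was nearest to Gpx7 (r = 0.997), Clec2d (r = 0.996) and Sorcs2 (r = 0.996). Fn1 was nearest to the imprinted RNA gene Meg3 (r = 0.997), Ap3m2 (r = 0.983) and a row annotated Mir377 (r = 0.981).

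One model could be fitted over arrays. limma was fitted to the 6 Utx arrays with context (ESCs, MEFs without DOX, MEFs with DOX) and genotype as additive terms, over 10673 genes. For KO minus WT over the 3 contexts, 0 of the 10 genes passed an adjusted p of 0.05, nor did any gene (0%), while 188 genes had an unadjusted p under 0.05. The estimates ran from -0.80 (SE 0.65) for Ccn2 to 1.59 (SE 1.69) for Ccn3, and every member had an adjusted p of 0.995 by limma with Benjamini-Hochberg adjustment. Its residual, with 2 degrees of freedom, holds the disagreement between contexts, including the opposite signs in the 2 MEF pairs. For ESCs minus MEFs without DOX over both genotypes, 0 of 10 and 0 of all genes (0%) passed, with 3104 genes at an unadjusted p under 0.05. Ccn1 had the smallest adjusted p by limma, 0.0888, with an estimate of -2.28 (SE 0.46). Without the MEF pair with DOX, which left 1 residual degree of freedom, all 10 passed, each lower in ESCs. Beside them 31.3% of 10158 genes passed in either direction, 1619 lower and 1563 higher. This fit includes the library labelled KO without DOX, whose Pou5f1 level runs against its label. The estimates there ran from -4.76 (SE 0.73) for Tnmd to -0.47 (SE 0.096) for Fn1, with Sparc at -0.86 and Ccn2 at -1.04. The adjusted p by limma ran from 0.000376 for Ccn3, at -4.72 (SE 0.33), to 0.0149 for Thbs1, at -2.05 (SE 0.44). In that fit the genotype estimate was negative for all 10 genes, the smallest adjusted p by limma being 0.0558 for Ccn2 at -1.75 (SE 0.18), and 4 genes passed over the whole table (0.0394%).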

How the data were processed

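RNA of 7 mouse samples was measured on 1 Affymetrix array each. The deposited values are log2 expression, for which the submitters' processing notes name RMA (background correction, normalization across arrays, probe summary) in Affymetrix Expression Console. Software versions and build: not given in the sources used here. In the table there were 21811 rows and 0 missing values. Through the platform annotation 14894 rows carry 1 gene symbol, 925 carry several (not used) and 5992 are unnamed here. RefSeq (GRCm38.p6) held the gene ID of 14854 rows and served for current names. Where a gene had several rows (754 genes), the row with the highest mean stood for it. Each of the 10 genes had 1 row.

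Groups came from the labels. Differences are of deposited log2 values between 2 arrays. A fold with its lower side under the floor (7.34) is given as at least the fold against the floor. Arrays have no depth, and their number, 1 a condition, limits the precision. Context and genotype terms were estimated over the 6 Utx arrays with limma 3.58.1 under R 4.3.3 (lmFit, eBayes with a trend, highest value over the floor), with Benjamini-Hochberg adjustment over all genes tested. The fit was also run on simulated data with independent noise and no disagreement between contexts. That run therefore cannot give the error rate of the fit on these arrays. The p-values of the limma fit measure the disagreement between contexts and not the spread between cultures. Python 3.11.15, numpy 2.4.6, pandas 2.3.3 and matplotlib 3.10.9 did the rest.

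Named were the 10 genes, label checks, up to 4 called list genes with the largest difference per comparison, defining markers of cell types, and for each member spanning 2 or more the 3 genes with the highest Pearson correlation. List counts leave out the 10 genes. The members and lists were chosen with earlier results of these data known. Alternatives were array scaling, the floor, the threshold, the mean over rows, the variance prior and the arrays in the fit.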

Additional observations from a re-analysis of the deposited data

Results flagged for a closer look

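Several of the 10 genes were 2-fold or more apart in opposite directions under the same contrast. With 1 array a condition none of these differences was tested, and all of them involve at least 1 MEF library labelled KO, whose Pou5f1 levels run against the DOX labels. For the genotype contrast, KO minus WT, the value in MEFs with DOX exceeded that in ESCs by 10.1 for Postn, 8.35 for Thbs2, 8.29 for Tnc, 5.64 for Thbs1 and 2.66 for Ccn2, on the log2 scale, being negative in ESCs and positive in MEFs with DOX. With values under the floor set to it, the differences were 6.80 for Postn, 6.09 for Thbs2 and 7.93 for Tnc. Thbs1 and Ccn2 were above the floor on all 4 arrays.

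The same contrast was negative in MEFs without DOX and positive with DOX, apart by 9.97 for Tnmd, 8.32 for Postn, 7.92 for Ccn3, 6.54 for Thbs2, 6.43 for Tnc and 3.03 for Ccn2. All but Ccn2 were under the floor in WT MEFs with DOX, and with that value set to the floor the differences were 6.83 for Tnmd, 6.55 for Postn, 5.70 for Ccn3, 5.87 for Thbs2 and 6.08 for Tnc. Read the other way, as DOX minus no DOX, the response of the MEFs labelled KO exceeded that of WT MEFs by the same amounts, and for Tnmd, Postn, Ccn3 and Ccn2 the responses of WT MEFs and of MEFs labelled KO each passed 2-fold in opposite directions.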

How the results depend on the processing

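Counts of the 10 genes in the 8 comparisons of 2 arrays were recomputed under 6 alternatives, and all but 2 of those counts stayed within 1.5 times. With a log2 threshold of 1.5 the count for the MEFs labelled KO against WT without DOX was 3 in place of 6, and for DOX in the MEFs labelled KO it was 2 in place of 4. Of 480 single-gene values under an alternative, 458 kept their side of the threshold, 17 no longer passed it, 5 newly passed it and 0 called values changed sign. In the limma fit of ESCs minus MEFs without DOX, leaving out the MEF pair with DOX gave 10 genes in place of 0, and in the other alternatives of both fits the count was 0. That fit has 1 residual degree of freedom. Over all genes, the called counts moved by more than 1.5 times in these settings. At a log2 threshold of 1.5 they were 172 in place of 329 for ESCs, 541 in place of 1348 for KO against WT MEFs without DOX, 336 in place of 888 for DOX in the MEFs labelled KO, 2031 in place of 3318 for WT ESCs against WT MEFs, and 1785 in place of 4172 and 2382 in place of 4631 for the Nanog KO array against WT MEFs without and with DOX. At the floor of the 60th percentile (8.48) they were 178, 864 and 540 for the first 3. Aligned medians gave 1974 and 2580, and quantile normalization 1994 and 2595, for the 2 Nanog KO comparisons. For ESCs minus MEFs, limma called 4 genes over the table with quantile normalization, 33 with no floor and 26 without a trend, in place of 0. The limma fit sets KO against WT within each context. A block on replicate numbers was not run, since the labels give none. Values under the floor are bounds only.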
